A study of Homo sapiens with 15 samples.

Results

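Laminin chains, integrin subunits and the basement membrane linkers nidogen, perlecan and agrin were followed from human induced pluripotent stem cells (hiPSCs) through retinal organoids (ROs) to cultured induced Müller glial cells (iMGCs). The members were picked by gene symbol, with no measured value in the rule: every laminin alpha, beta or gamma chain, every integrin alpha or beta subunit, and NID1, NID2, HSPG2 and AGRN. This gave 42 of the 19684 genes in the deposited tables, made up of 5 laminin alpha, 4 laminin beta and 3 laminin gamma chains, 18 integrin alpha and 8 integrin beta subunits, and 4 nidogen or proteoglycan genes. RNA-seq was done on 15 libraries, 3 in each of 5 groups. All of them came from the BC1-GFP hiPSC line, so every value below describes 1 line. The hiPSCs were kept undifferentiated on Matrigel in mTeSR1 medium. The D70-ROs and D150-ROs were neural retina layers taken from organoids 70 and 150 days after induction and grown in suspension in medium with serum, each library pooling several organoids. Between these ages the B27 supplement of the organoid medium was replaced by N2, so organoid age and supplement cannot be told apart. The iMGCs were cells dissociated from D150-RO neural retina layers and expanded on Matrigel in another medium that also held serum, taken on day 5 of passage 1 (P1) or of passage 5 (P5). Matrigel is an extract of a mouse tumour matrix rich in laminin and type IV collagen protein. The 2 kinds of adherent culture were thus grown on it while the later organoids were not, so attachment to Matrigel, cell kind and medium cannot be told apart.

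A basement membrane is a thin sheet of matrix beneath epithelia and around vessels, nerves and muscle, built on a network of laminin heterotrimers, each with an alpha, a beta and a gamma chain, and a network of type IV collagen, which nidogens and perlecan hold together. Integrins are heterodimers of an alpha and a beta subunit that bind this matrix, or other ligands such as fibronectin and interstitial collagen, and tie it to the actin cytoskeleton. In the retina, Müller glia span the whole neural layer and their endfeet rest on the inner limiting membrane, a basement membrane that contains laminins.

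The libraries held between 11349600 and 20398755 counts over the genes. Replicates of a group differed by more than sampling noise in each of 15 pairs, with a chi-square per degree of freedom between 2.28 and 34.2 over genes with 10 or more counts in both, and the widest pairs were among the hiPSCs and D70-ROs. Group markers followed the labels for hiPSCs and ROs: 5 of 5 pluripotency genes were lower in D70-ROs than in hiPSCs, and D150-ROs exceeded D70-ROs in 5 of 5 tested photoreceptor genes. For iMGCs, 2 of 6 Müller glia markers were called higher and 4 lower in P1 iMGCs against D150-ROs. RLBP1, which encodes the Müller glial retinaldehyde-binding protein CRALBP, was at 29.6 to 36.9 FPKM in the D150-ROs, at 0 in each P1 iMGC library and at most 0.09 in P5 iMGCs. GLUL (glutamine synthetase) was at 97.6 to 102 FPKM in D150-ROs and 12.3 to 14.6 in P1 iMGCs, SOX9 at 38.9 to 46.5 and 4.98 to 5.48, and SLC1A3, a glutamate transporter, at 27.6 to 28.7 and 0.36 to 0.39. VIM (vimentin) was at 985 to 1136 FPKM in D150-ROs and 2141 to 2181 in P1 iMGCs, and APOE was the other marker called higher. FPKM, used throughout for levels, is the count scaled to the length of the transcript and to the mapped reads of that library.

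The 42 members together took 0.240% to 0.284% of all counts in the hiPSC libraries, 0.0965% to 0.0985% in D70-ROs, 0.194% to 0.197% in D150-ROs, 1.32% to 1.34% in P1 iMGCs and 1.47% to 1.52% in P5 iMGCs. The ranges of the 5 groups did not overlap. Of the members, 33 reached 1 FPKM in some library, 13 reached it in every library, and 9 stayed under it in every library. Those 9 were LAMA3 and LAMB4, the leukocyte subunits ITGAD, ITGAL, ITGAM, ITGAX, ITGB2 and ITGB7, and the collagen-binding subunit ITGA10, the highest of them at 0.74 FPKM in D150-ROs.

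Laminin alpha chains carry the domains by which integrins and dystroglycan bind a laminin, and their levels differed between groups. LAMA1 (ENSG00000101680), the chain typical of embryonic basement membranes, was at 16.7, 16.0 and 11.5 FPKM for hiPSCs, 1.53, 1.54 and 1.35 for D70-ROs, 6.71, 6.43 and 6.51 for D150-ROs, 0.75, 0.8 and 0.9 for P1 iMGCs and 0.48, 0.67 and 0.59 for P5 iMGCs. It was highest in hiPSCs, intermediate in D150-ROs and under 2 FPKM elsewhere. LAMA5 (ENSG00000130702), the chain of most mature epithelial basement membranes, was at 18.3, 19.0 and 13.0 FPKM for hiPSCs, 2.93, 2.55 and 3.27 for D70-ROs, 20.9, 17.1 and 17.9 for D150-ROs, 9.35, 9.39 and 9.48 for P1 iMGCs and 15.5, 16.6 and 16.1 for P5 iMGCs. Its D70-RO libraries lay below those of every other group, and the hiPSC range overlapped those of the D150-ROs and of the P5 iMGCs. LAMA4 (ENSG00000112769), the chain known from vascular and mesenchymal basement membranes, was at 0.5, 0.31 and 1.05 FPKM for hiPSCs, 0.23, 0.01 and 0.11 for D70-ROs, 1.28, 0.56 and 0.71 for D150-ROs, 2.39, 1.69 and 2.2 for P1 iMGCs and 10.8, 9.55 and 9.51 for P5 iMGCs. All P5 iMGC libraries lay above all the others. LAMA2, the chain of muscle and nerve basement membranes, reached at most 2.19 FPKM, in D150-ROs.

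As shares of the FPKM of all 5 alpha chains, LAMA1 made up 45.2% ± 1.29 in hiPSCs and 6.30% ± 0.599 in P1 iMGCs. LAMA5 was the leading alpha chain in every group, from 51.4% ± 1.66 in hiPSCs to 72.6% ± 2.09 in P1 iMGCs. LAMA4 made up 16.1% ± 2.37 in P1 iMGCs and 36.2% ± 2.52 in P5 iMGCs. Shares are means of 3 libraries with their SD, and are descriptions without a test.

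Of the beta chains, LAMB1 (ENSG00000091136), the beta chain of early and widespread laminins, was at 16.0, 13.4 and 16.2 FPKM for hiPSCs, 7.33, 7.8 and 7.58 for D70-ROs, 41.7, 40.9 and 40.1 for D150-ROs, 109, 108 and 108 for P1 iMGCs and 135, 131 and 129.6 for P5 iMGCs. From lowest to highest the groups were D70-RO, hiPSC, D150-RO, P1 iMGC and P5 iMGC, with no overlap. LAMB2 (ENSG00000172037), a chain known from the inner limiting membrane and from synapses, was at 21.4, 22.3 and 15.9 FPKM for hiPSCs, 16.8, 20.4 and 17.9 for D70-ROs, 14.5, 14.8 and 14.5 for D150-ROs, 41.1, 42.2 and 43.1 for P1 iMGCs and 43.4, 45.9 and 44.7 for P5 iMGCs. The iMGC libraries lay above all others, while the hiPSC range overlapped that of the D70-ROs. LAMB3 (ENSG00000196878), a chain of an epithelial anchoring laminin, was at 0.31, 1.02 and 0.39 FPKM for hiPSCs, 0.08, 0.04 and 0.14 for D70-ROs, 0.19, 0.13 and 0.12 for D150-ROs, 1.92, 2.6 and 2.39 for P1 iMGCs and 6.15, 5.23 and 5.15 for P5 iMGCs. LAMB2 led the beta chains in hiPSCs with 55.5% ± 6.03 and in D70-ROs with 70.5% ± 1.50 of beta chain FPKM. In hiPSCs this held in 2 of 3 libraries, and in replicate 3 LAMB1 was slightly above LAMB2, at 49.9% against 48.9%. LAMB1 led in the other 3 groups, with 73.3% ± 0.417 in D150-ROs, 71.0% ± 0.695 in P1 iMGCs and 72.5% ± 0.671 in P5 iMGCs.

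The gamma chain LAMC1 (ENSG00000135862), part of most laminins, was at 40.7, 41.4 and 33.3 FPKM for hiPSCs, 8.15, 11.8 and 8.8 for D70-ROs, 21.8, 25.4 and 25.0 for D150-ROs, 105, 107 and 108 for P1 iMGCs and 114, 115 and 115 for P5 iMGCs. It was lowest in D70-ROs and highest in iMGCs, and its 5 groups did not overlap. LAMC3 (ENSG00000050555), a gamma chain of neural tissue, was at 7.4, 7.89 and 5.73 FPKM for hiPSCs, 0.49, 0.43 and 0.29 for D70-ROs, 0.12, 0.13 and 0.07 for D150-ROs, 0, 0 and 0.02 for P1 iMGCs and 0, 0.02 and 0.01 for P5 iMGCs. It was highest in hiPSCs and close to 0 in iMGCs.

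A laminin needs 1 chain of each kind, and the 3 classes did not move in proportion. The summed FPKM of the alpha chains was 28.6 ± 2.78 in D150-ROs and 13.0 ± 0.365 in P1 iMGCs (mean ± SD, n = 3), while that of the gamma chains was 24.4 ± 1.98 and 110.4 ± 1.76. The ratio of alpha to gamma chain FPKM was 0.645 ± 0.0356 in hiPSCs, 0.502 ± 0.102 in D70-ROs, 1.18 ± 0.220 in D150-ROs, 0.117 ± 0.00379 in P1 iMGCs and 0.230 ± 0.00349 in P5 iMGCs. The lowest D150-RO library, at 1.03, lay above the highest P5 iMGC library, at 0.233. The ratio of beta to gamma chain FPKM was 2.3 ± 0.222 in D150-ROs and 1.39 ± 0.0164 in P1 iMGCs. These ratios compare transcripts, not chains in the matrix, and do not depend on how libraries are scaled to each other.

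Nidogens bridge laminin and type IV collagen. NID1 (ENSG00000116962) was at 23.2, 20.6 and 16.8 FPKM for hiPSCs, 2.4, 3.02 and 1.67 for D70-ROs, 2.4, 2.64 and 3.37 for D150-ROs, 20.1, 19.7 and 20.2 for P1 iMGCs and 20.3, 23.1 and 22.9 for P5 iMGCs. Its hiPSC and iMGC libraries overlapped and lay far above those of both RO groups. NID2 (ENSG00000087303) was at 1.6, 1.16 and 1.45 FPKM for hiPSCs, 0.14, 0.09 and 0.1 for D70-ROs, 0.07, 0.05 and 0.14 for D150-ROs, 19.0, 19.5 and 19.5 for P1 iMGCs and 10.5, 10.4 and 9.18 for P5 iMGCs. It was near 0 in the ROs, higher in hiPSCs and highest in P1 iMGCs. HSPG2 (ENSG00000142798), which encodes the proteoglycan perlecan, was at 19.7, 22.7 and 13.1 FPKM for hiPSCs, 0.83, 0.83 and 1.3 for D70-ROs, 0.91, 1.33 and 1.21 for D150-ROs, 31.7, 32.4 and 34.3 for P1 iMGCs and 49.2, 53.1 and 52.3 for P5 iMGCs. The RO libraries stayed at or under 1.33 FPKM and overlapped, and the other groups did not. AGRN (ENSG00000188157), which encodes agrin, a proteoglycan that binds laminin and dystroglycan, was at 34.5, 37.1 and 25.7 FPKM for hiPSCs, 16.6, 15.9 and 20.6 for D70-ROs, 15.6, 16.3 and 14.9 for D150-ROs, 65.4, 64.7 and 65.7 for P1 iMGCs and 69.1, 76.1 and 72.6 for P5 iMGCs. Agrin was the member of this class with the highest mean level in every group.

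**Figure D1:**
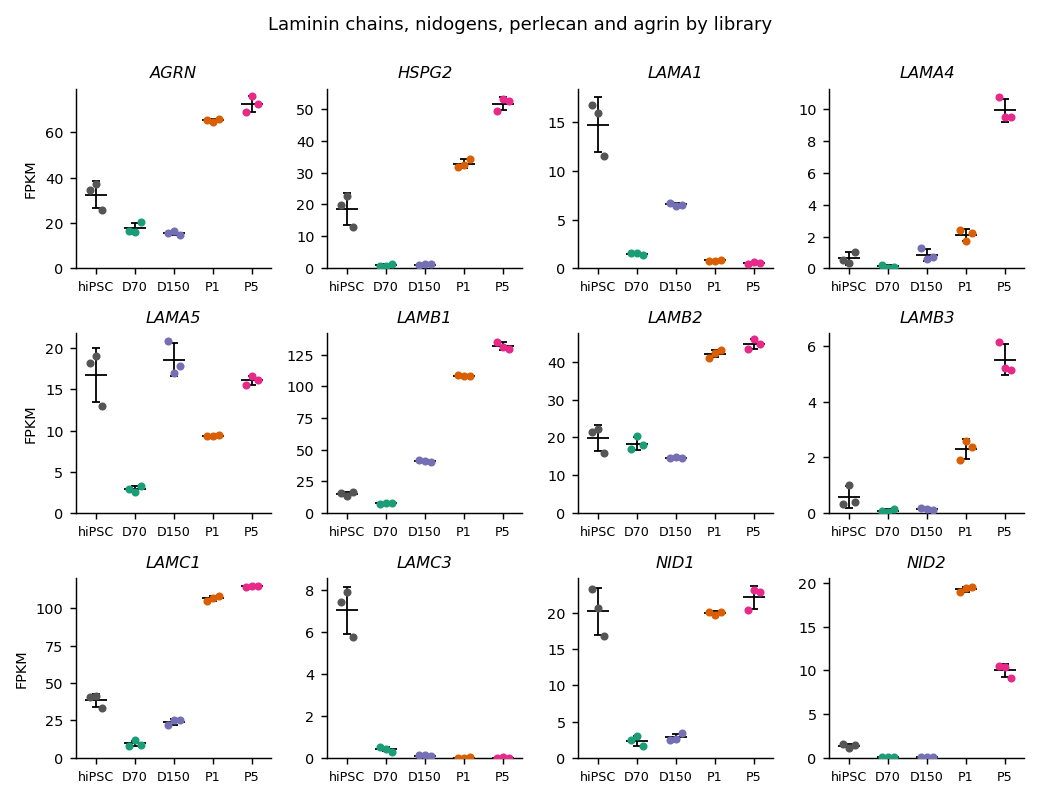
FPKM of laminin chains, nidogens, perlecan and agrin (y axis, linear, own scale in each panel) in the 3 libraries (points) of each group (x axis, in the order hiPSC, D70-RO, D150-RO, P1 and P5 iMGC), with mean (long bar) and SD (capped bars). LAMA1 and LAMC3 peak in hiPSCs, while LAMB1, LAMC1, HSPG2, AGRN and NID2 lie higher in every iMGC library than in any RO library.

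Among integrin alpha subunits that bind laminin, ITGA3 (ENSG00000005884) was at 13.6, 12.4 and 10.9 FPKM for hiPSCs, 3.58, 3.82 and 2.46 for D70-ROs, 15.0, 18.1 and 19.7 for D150-ROs, 321, 322 and 328 for P1 iMGCs and 406, 423 and 421 for P5 iMGCs. The iMGC libraries of both passages lay far above all others, the highest of which was a D150-RO library. ITGA6 (ENSG00000091409) was at 32.7, 27.3 and 31.5 FPKM for hiPSCs, 9.44, 9.08 and 9.02 for D70-ROs, 17.7, 16.4 and 15.0 for D150-ROs, 13.0, 11.7 and 12.4 for P1 iMGCs and 14.8, 14.5 and 12.1 for P5 iMGCs. It was highest in hiPSCs and lowest in D70-ROs, and the other 3 groups lay close together. ITGA7 (ENSG00000135424), best known from muscle, was at 9.59, 10.3 and 8.66 FPKM for hiPSCs, 6.18, 6.62 and 6.41 for D70-ROs, 11.7, 13.1 and 12.9 for D150-ROs, 32.9, 35.0 and 34.3 for P1 iMGCs and 18.6, 18.1 and 18.5 for P5 iMGCs. As shares of alpha subunit FPKM, ITGA6 led in hiPSCs with 39.0% ± 3.28 and ITGA3 led in P1 iMGCs with 42.8% ± 0.233.

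Of the subunits that bind other ligands, the collagen-binding ITGA1, ITGA2 and ITGA10 stayed at or under 3.13 FPKM in every library. ITGA11 (ENSG00000137809), the subunit for fibrillar collagen found on fibroblasts, was at 0.01, 0.3 and 0.22 FPKM for hiPSCs, 0.09, 0.13 and 0.06 for D70-ROs, 0.13, 0.14 and 0.14 for D150-ROs, 61.9, 59.1 and 58.5 for P1 iMGCs and 143, 146 and 139.7 for P5 iMGCs. It did not exceed 0.30 FPKM in any hiPSC or RO library. ITGA5 (ENSG00000161638), the fibronectin receptor subunit, was at 14.4, 15.3 and 11.7 FPKM for hiPSCs, 5.02, 5.89 and 6.5 for D70-ROs, 6.25, 8.26 and 6.71 for D150-ROs, 123, 120.4 and 134 for P1 iMGCs and 153, 153 and 153 for P5 iMGCs. The iMGC libraries lay above 120 FPKM, and the highest other library was an hiPSC library. ITGAV (ENSG00000138448), the shared partner of several beta subunits, was at 5.97, 4.61 and 5.79 FPKM for hiPSCs, 9.9, 6.67 and 9.33 for D70-ROs, 19.5, 19.8 and 19.4 for D150-ROs, 190.2, 189.8 and 182 for P1 iMGCs and 224, 212 and 230.5 for P5 iMGCs. ITGA4 (ENSG00000115232), a receptor subunit for fibronectin and for the vascular adhesion molecule VCAM1, was at 0.49, 0.4 and 0.37 FPKM for hiPSCs, 0.45, 0.34 and 0.79 for D70-ROs, 5.41, 5.0 and 5.3 for D150-ROs, 5.31, 5.38 and 6.07 for P1 iMGCs and 7.78, 6.89 and 7.17 for P5 iMGCs. It was thus low in hiPSCs and D70-ROs and present in D150-ROs and iMGCs, and the D150-RO and P1 iMGC ranges overlapped.

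Of the beta subunits, ITGB1 (ENSG00000150093), the partner of most alpha subunits, had the highest FPKM of all members in D70-ROs, D150-ROs and iMGCs. It was at 119.8, 93.0 and 121 FPKM for hiPSCs, 76.1, 67.0 and 74.5 for D70-ROs, 75.8, 78.4 and 76.6 for D150-ROs, 1751, 1804 and 1777 for P1 iMGCs and 1759, 1616 and 1714 for P5 iMGCs. ITGB5 (ENSG00000082781), an ITGAV partner for vitronectin, was at 120.2, 135 and 108 FPKM for hiPSCs, 14.8, 14.4 and 9.01 for D70-ROs, 17.8, 17.6 and 18.8 for D150-ROs, 39.8, 42.1 and 42.0 for P1 iMGCs and 68.9, 60.2 and 65.0 for P5 iMGCs. In hiPSCs its range overlapped that of ITGB1. ITGB3 (ENSG00000259207), the other vitronectin receptor subunit, was at 0.07, 0.1 and 0.06 FPKM for hiPSCs, 0.08, 0 and 0.03 for D70-ROs, 0.21, 0.38 and 0.4 for D150-ROs, 19.9, 20.3 and 21.5 for P1 iMGCs and 48.9, 45.1 and 48.5 for P5 iMGCs. ITGB8 (ENSG00000105855), an ITGAV partner that activates latent TGF-beta, was at 0.41, 0.35 and 0.41 FPKM for hiPSCs, 8.17, 5.78 and 7.54 for D70-ROs, 28.2, 29.2 and 27.1 for D150-ROs, 7.2, 5.79 and 7.0 for P1 iMGCs and 10.9, 9.82 and 10.4 for P5 iMGCs. ITGB8 was the beta subunit with its peak in D150-ROs. ITGB1 made up 47.2% ± 6.16 of beta subunit FPKM in hiPSCs, 61.9% ± 0.157 in D150-ROs and 96.2% ± 0.0894 in P1 iMGCs, and ITGB8 made up 22.7% ± 0.593 in D150-ROs.

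**Figure D2:**
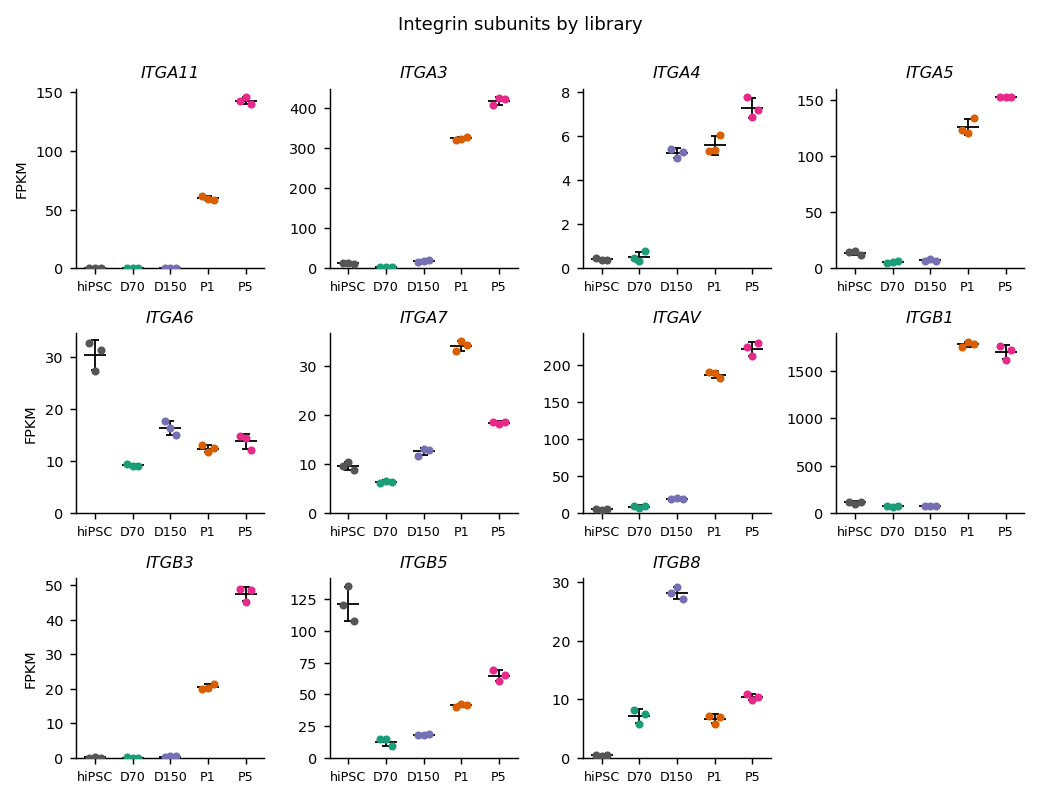
FPKM of integrin subunits (y axis, linear, own scale in each panel) in the 3 libraries (points) of each group (x axis, in the order hiPSC, D70-RO, D150-RO, P1 and P5 iMGC), with mean (long bar) and SD (capped bars). ITGA11, ITGA3, ITGA5, ITGAV, ITGB1 and ITGB3 sit in every iMGC library above all hiPSC and RO libraries, ITGA6 and ITGB5 peak in hiPSCs and ITGB8 in D150-ROs.

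**Figure D3:**
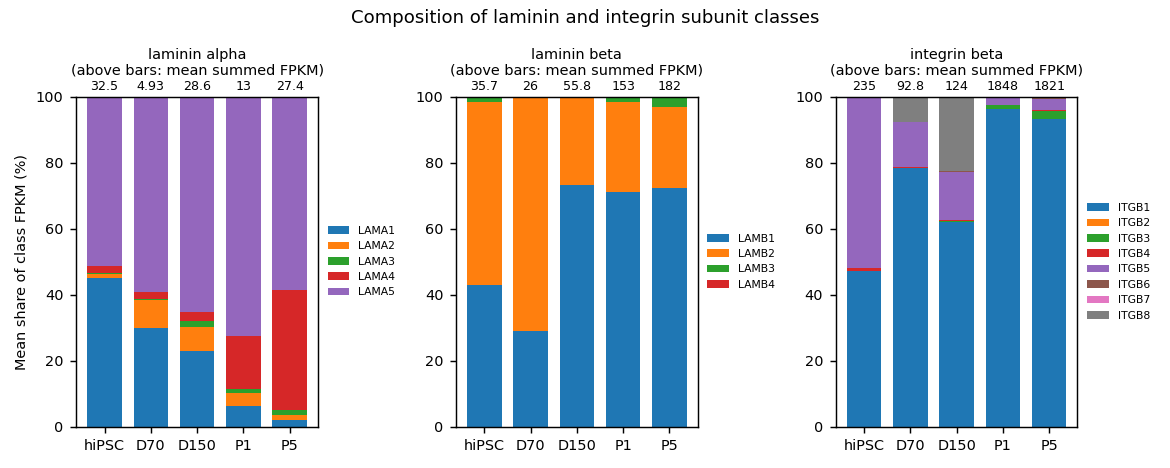
Mean share of each gene in the summed FPKM of its class (y axis, percent, 3 libraries a group) for laminin alpha and beta chains and integrin beta subunits in 5 groups (x axis), with the mean summed FPKM above each bar. LAMA1 shrinks from 45.2% of alpha chain FPKM in hiPSCs to 6.30% in P1 iMGCs, and ITGB1 grows from 47.2% to 96.2% of beta subunit FPKM.

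The groups were then compared in the order in which the material was made. A gene was called at a Benjamini-Hochberg adjusted p under 0.05 over all genes tested and a fold change of at least 2, in edgeR's quasi-likelihood test on rounded counts, among genes with 1 FPKM or more in at least 3 of the 6 libraries. Neighbouring comparisons share 3 libraries and are not independent of each other. In these bulk samples, fewer cells of a type and less RNA per cell cannot be told apart.

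D70-ROs against hiPSCs asks what changes as pluripotent cells become retinal tissue. Most tested laminin chains, both nidogens and perlecan were called lower in D70-ROs, with LAMB2 the tested chain that was not. Of 24 members tested, 16 were called lower, 2 higher and 6 neither. Over all 12954 genes tested, 21.1% were called lower and 22.5% higher. The median log2 fold change was -1.73 over the members tested and 0.02 over all genes. By class, 4 of 4 nidogen or proteoglycan genes and 2 of 2 tested laminin alpha chains were called lower. HSPG2 fell (log2 fold change -4.53 ± 0.22 SE, adjusted p = 1.5e-08), NID1 (log2 fold change -3.24 ± 0.22 SE, adjusted p = 1.75e-07) and NID2 (log2 fold change -3.84 ± 0.32 SE, adjusted p = 9.36e-07). LAMC3 fell (log2 fold change -4.26 ± 0.23 SE, adjusted p = 2.87e-08).

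In the same comparison LAMA1 fell (log2 fold change -3.44 ± 0.18 SE, adjusted p = 2.3e-08) and LAMA5 (log2 fold change -2.63 ± 0.16 SE, adjusted p = 7.79e-08). LAMC1 fell (log2 fold change -2.14 ± 0.17 SE, adjusted p = 6.55e-07) and LAMB1 (log2 fold change -1.12 ± 0.12 SE, adjusted p = 8.69e-06). LAMA1, LAMB1 and LAMC1 are the chains of the laminin typical of early embryonic tissue. LAMB2, by contrast, was not called (log2 fold change -0.25 ± 0.15 SE, adjusted p = 0.156). Among integrins, ITGB5 fell (log2 fold change -3.51 ± 0.15 SE, adjusted p = 5.6e-09), ITGA3 (log2 fold change -2.02 ± 0.19 SE, adjusted p = 2.02e-06), ITGA6 (log2 fold change -1.85 ± 0.11 SE, adjusted p = 8.48e-08) and ITGA5 (log2 fold change -1.62 ± 0.16 SE, adjusted p = 2.79e-06). ITGA3 and ITGA6 are laminin receptor subunits, ITGA5 and ITGB5 belong to receptors for fibronectin and vitronectin. AGRN, ITGB4 and ITGA2B were also called lower, with log2 fold changes of -1.26, -3.20 and -1.11. ITGA2B, the platelet subunit, was not called without replicate 1 of the D70-ROs, at -0.98. The 2 members called higher were ITGB8 (log2 fold change 4.08 ± 0.18 SE, adjusted p = 7.16e-09) and the collagen-binding subunit ITGA2 (log2 fold change 1.32 ± 0.23 SE, adjusted p = 0.000342). ITGB1 passed the adjusted p but not the 2-fold limit (log2 fold change -0.76 ± 0.12 SE, adjusted p = 0.000123).

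Related genes, from lists chosen with earlier results of these data known, were counted in the same fit. Their counts stand beside 21.1% of all genes tested called lower and 22.5% called higher. Of the other basement membrane genes, 20 were tested, 12 were called lower and 3 higher, with a median log2 fold change of -1.45. COL18A1, a basement membrane collagen, had a log2 fold change of -2.59 ± 0.25 (SE) and the collagen crosslinking peroxidase PXDN one of -1.57 ± 0.14. The ranges of the collagen-binding glycoprotein gene SPARC overlapped, at 139 to 151 FPKM in hiPSCs and 91.4 to 156 in D70-ROs. Of 30 tested genes of the integrin adhesion complex, 14 were called lower and 3 higher. ACTN1, the actin crosslinker alpha-actinin 1, was among those lower, with a log2 fold change of -3.03 ± 0.13. Of 23 tested laminin receptors other than integrins, 8 were lower and 3 higher, and the dystroglycan gene DAG1 had -1.56 ± 0.14. RPSA, the most abundant gene of that list, was at 2518 to 2841 FPKM in hiPSCs and 2670 to 3193 in D70-ROs. Of 20 tested integrin ligands outside the basement membrane, 14 were lower and 4 higher. FN1 (fibronectin) had a log2 fold change of -3.49 ± 0.16 and SPP1 (osteopontin) one of 4.31 ± 0.20.

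D150-ROs against D70-ROs asks what differs between older and younger organoid retina, which also differed in medium supplement (N2 in place of B27). Of 6 laminin chains tested, 5 were called higher in D150-ROs, while HSPG2, NID1 and AGRN were not called and NID2 was not tested. Of 22 members tested, 8 were called higher, 1 lower and 13 neither. Of all 12855 genes tested, 16.6% were called higher and 16.7% lower. The median log2 fold change was 0.54 over the members tested and -0.01 over all genes. The 3 tested laminin alpha chains were higher. LAMA5 rose (log2 fold change 2.45 ± 0.12 SE, adjusted p = 4.95e-07), LAMA2 (log2 fold change 2.16 ± 0.26 SE, adjusted p = 7.88e-05) and LAMA1 (log2 fold change 1.96 ± 0.10 SE, adjusted p = 7.57e-07). LAMB1 rose (log2 fold change 2.18 ± 0.10 SE, adjusted p = 3.57e-07) and LAMC1 (log2 fold change 1.11 ± 0.15 SE, adjusted p = 0.000191). LAMB2, in contrast, passed the adjusted p but not the 2-fold limit (log2 fold change -0.59 ± 0.10 SE, adjusted p = 0.000815).

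Among integrins in that comparison, ITGA4 rose (log2 fold change 3.28 ± 0.18 SE, adjusted p = 1.03e-06), ITGA3 (log2 fold change 2.16 ± 0.18 SE, adjusted p = 8.79e-06) and ITGB8 (log2 fold change 1.73 ± 0.12 SE, adjusted p = 3.39e-06). The member called lower was ITGAE, a leukocyte subunit at 0.70 to 2.25 FPKM here (log2 fold change -1.23 ± 0.26 SE, adjusted p = 0.00207). HSPG2, NID1, AGRN and ITGB1 were not called, with log2 fold changes of 0.04, 0.03, -0.19 and -0.14. The sign of HSPG2 and of NID1 turned under upper-quartile scaling, and that of AGRN and ITGB1 when libraries were scaled by their totals alone.

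Long genes as a whole moved in this comparison. The longest 25% of tested genes by exon length, among them 13 of the 22 tested members, had a median log2 fold change of 0.52, with 29.7% called higher and 4.76% lower. The shortest 25% had a median of -0.60, with 9.55% called higher and 34.5% lower. With a smooth trend on exon length removed, an alternative chosen after seeing the data, 6 members were called higher and 1 lower. ITGB8, at 0.98, and LAMC1, at 0.74, were no longer called, and LAMC1 was also not called without replicate 1 of the D70-ROs. LAMB1, LAMA5, LAMA2 and LAMA1 remained called, at 1.84, 1.73, 1.63 and 1.19. When libraries were scaled by their totals alone, 9 members were called higher and 1 lower, and the share of calls over all genes that were higher moved from 49.8% to 63.9%. Without that change of scaling, the longest 25% had a median of 0.25 in D70-ROs against hiPSCs and -0.23 in P1 iMGCs against D150-ROs. In P5 against P1 iMGCs that median was 0.0046.

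The list counts of this comparison stand beside 16.6% of all genes tested called higher and 16.7% called lower. Of the related lists, 16 other basement membrane genes were tested, of which 2 were called higher and 4 lower. EGFLAM (pikachurin), a dystroglycan ligand at photoreceptor synapses, was higher by 3.04 ± 0.12 (SE) on the log2 scale, and FBLN1 (fibulin 1) had -3.45 ± 0.19. Of 28 tested adhesion complex genes, 5 were higher and 1 lower. Of 24 tested laminin receptors other than integrins, 5 were higher and 6 lower, and the ribosomal and laminin-binding gene RPSA had -2.67 ± 0.11. Of 20 tested integrin ligands, 11 were higher and 2 lower, with SPP1 at 2.13 ± 0.11.

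P1 iMGCs against D150-ROs asks how cells expanded in culture differ from the tissue they came from. Most members were higher in P1 iMGCs, led by ITGA11, NID2, ITGB3, HSPG2 and ITGB1. Of 29 members tested, 20 were called higher, 5 lower and 4 neither. Of all 12896 genes tested, 20.0% were called higher and 24.1% lower. The median log2 fold change was 2.17 over the members tested and -0.05 over all genes. Scaling by library totals alone shifted the median of all genes by -0.644 and moved the higher share of all calls from 45.4% to 22.6%, while 20 members were still called higher and 5 lower. Log2 fold changes quoted for this comparison are from the TMM scaling and lie above the ratios of FPKM.

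The proteoglycans and nidogens were all called higher in P1 iMGCs. NID2 rose (log2 fold change 8.39 ± 0.13 SE, adjusted p = 1.07e-17), from 19 counts over the 3 D150-RO libraries to 4352 over the 3 P1 iMGC libraries. HSPG2 rose (log2 fold change 5.40 ± 0.07 SE, adjusted p = 3.44e-18), NID1 (log2 fold change 3.47 ± 0.08 SE, adjusted p = 2.9e-15) and AGRN (log2 fold change 2.79 ± 0.04 SE, adjusted p = 2.19e-17). Both nidogens were thus higher, as was perlecan, the other linker of the laminin and collagen IV networks. Of the laminins, LAMB3 rose (log2 fold change 4.40 ± 0.23 SE, adjusted p = 4.61e-11) and LAMC1 (log2 fold change 2.78 ± 0.06 SE, adjusted p = 4.19e-16). LAMB2 rose (log2 fold change 2.17 ± 0.05 SE, adjusted p = 5.41e-16) and LAMB1 (log2 fold change 2.06 ± 0.05 SE, adjusted p = 1.55e-15).

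The laminin alpha chains went in different directions. LAMA4 rose (log2 fold change 2.17 ± 0.15 SE, adjusted p = 1.08e-09), while LAMA1 fell (log2 fold change -2.35 ± 0.09 SE, adjusted p = 7.48e-13) and LAMA2 fell (log2 fold change -1.40 ± 0.15 SE, adjusted p = 2.22e-07). LAMA5 was not called (log2 fold change -0.34 ± 0.06 SE, adjusted p = 0.00013), and its sign turned, to 0.49, when P5 iMGCs took the place of P1 iMGCs. That turn was not seen in FPKM, where the P5 iMGC libraries, at 15.5 to 16.6, lay below the D150-RO libraries, at 17.1 to 20.9.

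Among integrin beta subunits, ITGB3 rose (log2 fold change 6.83 ± 0.11 SE, adjusted p = 2.42e-17), ITGB1 (log2 fold change 5.19 ± 0.06 SE, adjusted p = 6.56e-19) and ITGB5 (log2 fold change 2.00 ± 0.05 SE, adjusted p = 4.68e-15). ITGB8 fell (log2 fold change -1.47 ± 0.07 SE, adjusted p = 9.85e-12), and with P5 iMGCs in place of P1 iMGCs it stood at -0.82 and was not called. Of the alpha subunits, ITGA11 rose (log2 fold change 9.15 ± 0.09 SE, adjusted p = 1.77e-19), from 40 counts over the 3 D150-RO libraries to 15288. The laminin receptor subunit ITGA3 rose (log2 fold change 4.86 ± 0.07 SE, adjusted p = 7.87e-18) and the fibronectin receptor subunit ITGA5 (log2 fold change 4.86 ± 0.05 SE, adjusted p = 5.89e-19). ITGAV rose (log2 fold change 3.90 ± 0.05 SE, adjusted p = 4.52e-18) and ITGA7 (log2 fold change 2.04 ± 0.06 SE, adjusted p = 1.12e-14). ITGA1 and ITGAE, both at or under 2.11 FPKM, were also higher, by 2.76 and 1.80 on the log2 scale.

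ITGA9 fell (log2 fold change -5.94 ± 0.27 SE, adjusted p = 7.95e-12), from 1.87 to 2.17 FPKM in D150-ROs to at most 0.03. ITGA2B fell (log2 fold change -3.65 ± 0.41 SE, adjusted p = 5.58e-07). ITGA2, ITGA4 and ITGA6 were not called, with log2 fold changes of 0.63, 0.71 and 0.30. The sign of ITGA2 and ITGA6 turned when libraries were scaled by their totals alone.

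**Figure D4:**
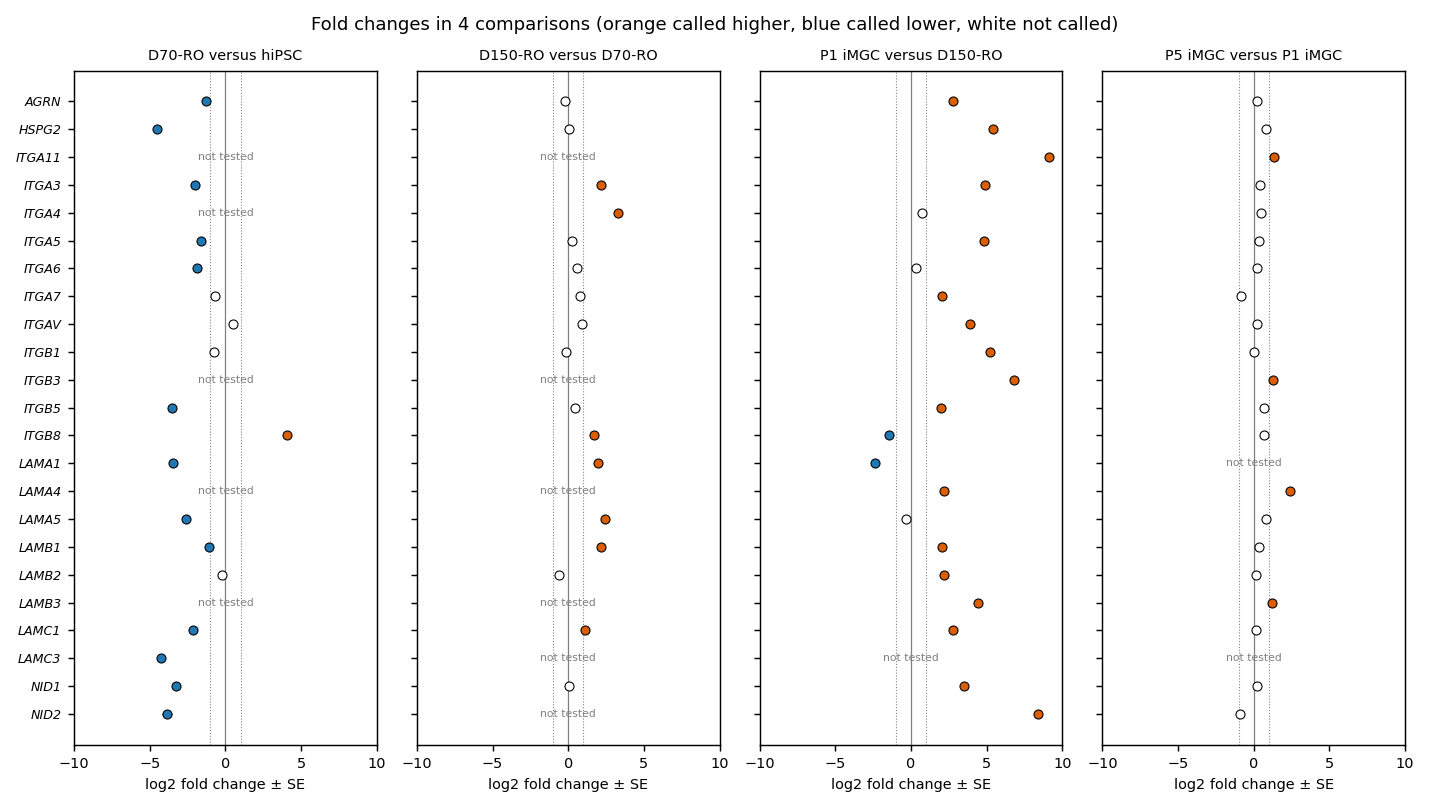
Log2 fold change (x axis, points, with SE bars often smaller than the point) of 23 members (y axis) in 4 comparisons, with dotted lines at 2-fold. The plotted laminins and nidogens lie left of 0 in D70-ROs against hiPSCs, most members lie right of 0 in P1 iMGCs against D150-ROs, where LAMA1, ITGB8 and LAMA5 lie left, and most lie within 2-fold in P5 against P1 iMGCs.

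Genes of the related lists were counted here too, beside 20.0% of all genes tested called higher and 24.1% called lower. Of 17 other basement membrane genes tested, 10 were higher and 5 lower. The type IV collagen genes COL4A1 and COL4A2, which encode the chains of the most common collagen IV network, were higher by 7.49 ± 0.07 (SE) and 5.92 ± 0.06 on the log2 scale, and the collagen-binding glycoprotein gene SPARC by 4.23 ± 0.05. Of 30 tested adhesion complex genes, 21 were higher and 1 lower, with ACTN1 at 4.84 ± 0.06 and the actin crosslinker FLNA at 3.26 ± 0.05. Of 24 tested laminin receptors other than integrins, 10 were higher and 1 lower, with the syndecan gene SDC2 at 2.78 ± 0.06. Of 22 tested integrin ligands, 19 were higher and 1 lower, with FN1 at 10.49 ± 0.13, TGFBI at 9.55 ± 0.08 and COL1A1 at 10.36 ± 0.08.

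Markers of other cell types also differed between these groups, some lists higher and others lower in P1 iMGCs. The markers were named after their values were seen. Over all genes tested in this comparison, 20.0% were called higher and 24.1% lower. The summed FPKM of 9 fibroblast and mesenchyme markers was 27.8 to 31.6 in D150-ROs and 2248 to 2354 in P1 iMGCs, and 7 of 8 tested were called higher and 1 lower. That of 6 smooth muscle and pericyte markers was 14.0 to 15.4 and 2266 to 2451, and 5 of 5 tested were called higher. Their part in the rise of ITGA11, ITGA5 and the basement membrane genes was not tested. Endothelial markers summed to 86.0 to 92.7 FPKM in D150-ROs, nearly all of it KDR, and to 2.02 to 2.09 in P1 iMGCs. Of the 2 tested, KDR was called lower and TIE1 higher, the latter at 0 to 0.09 FPKM in D150-ROs and 1.25 to 1.41 in P1 iMGCs, and CDH5 was at 0 in every D150-RO library. The 8 leukocyte and microglia markers summed to 2.95 to 4.59 FPKM in D150-ROs and 6.50 to 7.78 in P1 iMGCs, and the 1 tested, CD68, was called higher. CSF1R was at 0 to 0.06 FPKM in D150-ROs and 0.36 to 0.94 in P1 iMGCs, and CX3CR1, AIF1, TYROBP, CD3E and P2RY12 were at 0 in every P1 iMGC library. Megakaryocyte and platelet markers summed to at most 1.27 FPKM in any library. Pigment epithelium markers summed to 24.7 to 31.5 FPKM in D150-ROs and 5.04 to 5.60 in P1 iMGCs, astrocyte and optic stalk markers to 5.64 to 6.17 and 0.40 to 0.71, and retinal progenitor markers to 389 to 434 and 35.2 to 39.1.

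P5 iMGCs against P1 iMGCs asks whether the cultured cells changed over passages. Of 26 members tested, 5 were called higher and 21 were not called. None was called lower by edgeR or DESeq2, although 3 (NID2, ITGA7 and ITGA2) passed the adjusted p in edgeR with a fall of under 2-fold. Of all 11366 genes tested, 1.94% were called higher and 0.977% lower. The median log2 fold change was 0.33 over the members tested and -0.0014 over all genes. LAMA4 rose (log2 fold change 2.37 ± 0.08 SE, adjusted p = 1.86e-17) and LAMB3 (log2 fold change 1.18 ± 0.11 SE, adjusted p = 7.07e-09). ITGA11 rose (log2 fold change 1.32 ± 0.04 SE, adjusted p = 4.79e-18), ITGB3 (log2 fold change 1.26 ± 0.04 SE, adjusted p = 7.75e-17) and ITGB6, an epithelial ITGAV partner at 1.02 to 1.15 FPKM in P5 iMGCs (log2 fold change 1.47 ± 0.23 SE, adjusted p = 1.68e-05).

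Many smaller differences passed the adjusted p at this replicate spread: 24 of 26 members did so without regard to fold. NID2, ITGA7 and ITGA2 were lower by under 2-fold, with log2 fold changes of -0.92, -0.82 and -0.76. LAMA5 and HSPG2 stood at 0.84 and 0.78. ITGB1 was not called (log2 fold change -0.0046 ± 0.04 SE, adjusted p = 0.945). Of the related lists, 3 of 13 other basement membrane genes, 2 of 24 laminin receptors other than integrins and none of 30 adhesion complex genes were called higher, with none lower. Those lists' most abundant genes, SPARC, RPSA and FLNA, had log2 fold changes of -0.11, -0.0033 and -0.12. Of 21 integrin ligands, 2 were higher and 3 lower. These list counts stand beside 1.94% of all genes tested called higher and 0.977% called lower.

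The promoters of 4 members are shown because these members had the largest rises and the largest fall, among those with an entry and a mean of 5 FPKM in some group, in P1 iMGCs against D150-ROs: ITGA11, NID2 and HSPG2 rose and ITGB8 fell. Each runs 250 bases up to the transcription start in RefSeq on GRCh38.p14, 5′ to 3′ on the gene's strand. Capitals mark the SP1 motif GGGCGG on either strand.
ITGA11, chr15:68432164-68432413, minus strand: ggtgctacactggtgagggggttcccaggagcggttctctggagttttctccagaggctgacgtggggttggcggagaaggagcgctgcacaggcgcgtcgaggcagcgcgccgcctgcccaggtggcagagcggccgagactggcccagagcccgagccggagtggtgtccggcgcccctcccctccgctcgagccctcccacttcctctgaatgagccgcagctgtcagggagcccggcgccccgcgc
NID2, chr14:52069060-52069309, minus strand: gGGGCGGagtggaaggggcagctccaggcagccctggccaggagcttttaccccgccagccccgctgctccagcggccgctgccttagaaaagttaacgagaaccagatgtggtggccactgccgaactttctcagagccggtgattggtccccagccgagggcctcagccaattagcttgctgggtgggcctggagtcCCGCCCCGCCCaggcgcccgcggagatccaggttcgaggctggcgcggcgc
HSPG2, chr1:21937311-21937560, minus strand: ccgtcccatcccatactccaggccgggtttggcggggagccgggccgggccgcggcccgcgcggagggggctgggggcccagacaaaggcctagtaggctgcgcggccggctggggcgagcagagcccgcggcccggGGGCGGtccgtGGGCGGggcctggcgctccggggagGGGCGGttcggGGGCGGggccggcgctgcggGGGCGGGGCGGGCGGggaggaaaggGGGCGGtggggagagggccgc
ITGB8, chr7:20330650-20330899, plus strand: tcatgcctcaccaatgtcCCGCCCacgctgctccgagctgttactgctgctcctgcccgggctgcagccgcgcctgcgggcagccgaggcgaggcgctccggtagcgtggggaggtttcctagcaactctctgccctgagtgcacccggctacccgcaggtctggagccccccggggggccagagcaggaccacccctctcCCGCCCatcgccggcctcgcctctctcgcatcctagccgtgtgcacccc
The NID2 sequence holds 3 matches, HSPG2 8, ITGB8 2 and ITGA11 none, and neighbouring matches can overlap. For ITGA11, NID2 and ITGB8 the bases after this start were found in a GENCODE 29 transcript of the gene, and for HSPG2 they were not. The GENCODE 29 genes NID2 and ITGB8 begin within the printed stretches, at positions 52069228 and 20330702. Part of each of these stretches thus lies inside the gene in that annotation.

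Of the 42 members, 29 had 36 promoter entries in the RefSeq table. The SP1 motif was in 20 of these 36 and in 42.6% of all 35116 promoters of the same length. The AP-1 motif TGANTCA was in 2 of 36 against 6.57%, the TEAD motif GGAATG in 4 against 11.9%, and the CArG box in 1 against 1.16%, all searched on both strands. A match of letters is a description and not a bound site.

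Some members share exon bases with other genes, and whether the counting used strand is not given in the sources used here. NID2 shared 30.0% of its exon bases with RTRAF on the opposite strand, which was at 39.3 to 45.1 FPKM in D150-ROs and 47.8 to 54.0 in P1 iMGCs. ITGB3 shared 51.6% with AC068234.1 and ITGB6 20.6% with AC092153.1, both on the same strand and both without a value here. ITGB7 shared 42.1% with ZNF740. The values of these members are uncertain for that reason, and by how much was not tested. NID2 itself was at 0.05 to 0.14 FPKM in D150-ROs. ITGB7 was at 0 in every D70-RO library, where ZNF740 was at 8.23 to 8.62 FPKM. HSPG2 shared 11.7% with LDLRAD2, which was at or under 0.18 FPKM in every library, and LAMA1 11.1% with a pair of antisense genes.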

How the data were processed

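RNA-seq was analysed in 15 libraries, grouped by their GEO titles. The authors used HISAT2 for mapping, StringTie for assembly and RSEM for quantification (versions, build and annotation are not given in the sources used here). The deposited tables hold, per the file headers, RSEM expected counts and FPKM for each library. 12 columns, of 1 table with iMGCs of unstated passage, were not used. The study's sources differ on the number of experiments and mention another sequencing company and a batch correction, so batch and group cannot be told apart. P1 iMGCs and D150-ROs were compared across tables by counts.

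Expected counts were rounded (8.22% to 10.1% were not whole) and tested with edgeR 4.0.16 (TMM, quasi-likelihood F test) in R 4.3.3, after testing on simulated data. SE is the log2 fold change over the square root of F. If replicates were not separate cultures, p-values measure technical spread only.

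The members and lists were chosen with earlier results of these data known. Library values are given for the 23 members with a group mean of 5 FPKM or more and a call in some comparison, and values in the related lists for up to 4 genes of highest mean FPKM. Cell type markers were named after their values were seen. CCN1 and CCN2 had no row under that symbol. The values of 1 member are not reported here. GENCODE 29, which holds all 19684 identifiers, gave exon lengths and overlaps. Alternatives included DESeq2 1.42.0, other scalings and filters, a replicate block and leaving out each library, and, chosen after seeing the data, library totals and an exon length trend.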

Additional observations from a re-analysis of the deposited data

How the results depend on the processing

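Of the counts of members called, those of D150-ROs against D70-ROs moved by over 1.5 times in 1 setting: without the filter on low values, 14 were called higher and 3 lower, because more members were tested. Over all genes, library totals gave 1507 higher and 5173 lower calls for P1 iMGCs against D150-ROs, and no filter gave 409 and 285 for P5 against P1 iMGCs. DESeq2, upper-quartile scaling and 1 fit of all libraries left each count of called members within 1.5 times, and leaving out a library gave 2 to 3 higher and 15 to 16 lower in D70-ROs against hiPSCs, 7 to 8 and 1 in D150-ROs against D70-ROs, 20 and 5 in P1 iMGCs against D150-ROs, and 5 and 0 in P5 against P1 iMGCs.

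Signs turned in 19 cases, each of a fold change that was not called. In D150-ROs against D70-ROs, HSPG2 went to -0.062 with upper-quartile scaling, to -0.79 with the length trend removed, and to between -0.070 and 0.19 with a library left out (-0.0025 without D150-RO replicate 2, -0.070 without D70-RO replicate 1, -0.0047 without D70-RO replicate 2). NID1 went to -0.072, to -0.046, and to between -0.18 and 0.26 (-0.12 without D150-RO replicate 3, -0.18 without D70-RO replicate 3). ITGA5 went to -0.043 with the length trend removed, and AGRN to 0.032 and ITGB1 to 0.085 with library totals. In P1 iMGCs against D150-ROs, P5 iMGCs in place of P1 iMGCs gave -0.13 for ITGA2 and 0.49 for LAMA5, both passages together 0.12 for LAMA5, and library totals -0.014 for ITGA2 and -0.34 for ITGA6. ITGB1 in P5 against P1 iMGCs lay between -0.024 and 0.024 with a library left out (0.024 without P5 iMGC replicate 2, 0.011 without P1 iMGC replicate 2). Except where fewer libraries or another scale made the change, the cause was not tested. Library totals shifted the median of all genes by 0.14, 0.221 and -0.644 in the first 3 comparisons.

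Calls of single members were lost for ITGA2B (-0.98 without D70-RO replicate 1, -0.97 with library totals), LAMB1 (-0.98, library totals), LAMC1 and ITGB8 as given above, and gained for ITGAE (1.06 without D70-RO replicate 2, 1.03 with library totals), ITGAV (1.12, library totals) and ITGA4 (1.17, P5 iMGCs). No clear pairing by replicate number was seen: correlations of same-numbered deviations ran from -0.0745 to 0.351 over 12 pairs, and in 10 of 24 cases a library correlated best with its own number. With so few libraries a group, this check cannot exclude that equal numbers share an experiment. The replicate block left every count of called members as it was: 2 higher and 16 lower, 8 and 1, 20 and 5, and 5 and 0. With 3 libraries a group, low members were counted on few reads, such as 19 for NID2 in D150-ROs.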

Other observations

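Members too low for the tests still differed in where they were seen. ITGA8, which binds nephronectin and fibronectin, was at 0.69 to 1.26 FPKM in D70-ROs, with 314 counts over the 3 libraries, and at 0.04 or less in every other library. ITGA10, for collagen, was at 0.67 to 0.74 in D150-ROs and at most 0.44 elsewhere, and LAMA3 at 0.32 to 0.66 in D150-ROs and 0.38 to 0.47 in P5 iMGCs. The leukocyte subunits ITGAM and ITGB7 were highest in hiPSCs, at 0.12 to 0.38 and 0.26 to 0.51 FPKM. None of these members was tested, since fewer than 3 of the libraries compared reached 1 FPKM.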
